A study of Homo sapiens with 4 samples.

Results

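The genes described here are the human plasma-membrane and lysosomal amino acid transporters of the SLC1, SLC7, SLC36, SLC38 and SLC43 families, with the heavy chains SLC3A1 and SLC3A2 and the SLC6 members SLC6A6, SLC6A9 and SLC6A14. Membership follows from the gene symbol and uses no measured value, but these families were chosen with earlier results of these data known. RefSeq holds 44 genes under these names, of which 40 had values among 16658 genes and 26 reached the expression filter among 10726 genes. RNA-seq was performed on wild-type (WT) cells (2 libraries) and on ZCCHC4 KO1 cells (2 libraries), a line with frameshift mutations in ZCCHC4, an RNA-binding methyltransferase of 28S ribosomal RNA. Both groups are labelled HepG2, a liver cancer cell line, were untreated, and were grown in DMEM with fetal bovine serum. KO1 is the 1 knockout line analysed here, so the loss of ZCCHC4 and other differences of that line from the WT cells cannot be told apart. Nothing in the labels says that the 2 libraries of a group came from separate cultures, so p-values measure the spread between these libraries, which may be technical.

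Amino acid transporters move amino acids across the plasma membrane and out of lysosomes. Some carry their substrate in with sodium and concentrate it (systems A and N of the SLC38 family), while others exchange one amino acid for another (SLC1A5, and the SLC7 light chains that need the heavy chain SLC3A2, called 4F2hc). Glutamine taken in by the first kind can be traded for leucine by the second, and lysosomal members report amino acids to the kinase complex mTORC1. System N carriers move glutamine, histidine and asparagine with sodium against protons, and SLC38A3 is known for this role in hepatocytes.

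Values are FPKM, fragments per kilobase of transcript scaled to the mapped fragments of a library, which allow levels of different genes to be compared per length. Log2 fold changes are those of FPKM + 1, ZCCHC4 KO1 over WT, from a limma fit over all 10726 tested genes, and a gene passed the test at a Benjamini-Hochberg adjusted p under 0.05. ZCCHC4 itself had an FPKM of 7.22 and 5.44 in WT against 1.08 and 2.29 in ZCCHC4 KO1 (log2 fold change -1.48, SE 0.287, adjusted p = 0.0448). Hepatocyte genes were almost silent in both groups: of 20 markers, 11 had values, 1 was at an FPKM of 1 or more in the 2 WT libraries and 0 were in both ZCCHC4 KO1 libraries, with sums of 2.43 to 2.73 in WT against 1.37 to 1.88 in ZCCHC4 KO1. AFP and HNF4A were at or under 0.08 in every library, while 3 of 6 markers of simple epithelium (KRT7, KRT8 and KRT18) reached 1 in all libraries and the 6 summed to 5244 to 9260. The libraries therefore did not carry the hepatocyte profile of their label, and the values below hold for the cells as they were sequenced. Fibroblast markers (3 of 5 at 1 or more in each group) summed to 24.2 to 25.5 in WT against 9.95 to 12.8 in ZCCHC4 KO1, and 0 of 2 leukocyte markers with values reached 1. The part of these marker differences in the results was not tested.

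SLC38A5, which encodes SNAT5, a system N carrier of glutamine, histidine, asparagine, serine and glycine, was the one transporter gene that passed the test. The 2 WT libraries had an FPKM of 74.9 and 86.9 against 2.18 and 1.98 in the ZCCHC4 KO1 libraries. Both WT libraries were high and both knockout libraries were little above the filter of 1, with no overlap. The means were 80.9 ± 8.49 and 2.08 ± 0.141 (SD, n = 2 each), so the level was 38.9-fold lower in ZCCHC4 KO1 cells. In bulk RNA, fewer cells with a transcript and less of it per cell cannot be told apart. The log2 fold change was -4.73 (SE 0.169, limma adjusted p = 0.000523), rank 4 among the falls of all tested genes. In this limma fit SLC38A5 was the only tested transporter gene at the thresholds of the study, a 2-fold change or more at an FDR under 0.001. Of all 10726 tested genes only 2 were higher and 6 lower at these thresholds here. The study reported far more with its own method, so a transporter gene short of them here may have met them there.

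Among the 26 tested transporter genes, 0 rose and 1 fell, beside 1.5% of all tested genes that rose and 4.48% that fell. At the thresholds of the study the counts were 0 higher and 1 lower, beside 0.0186% and 0.0559% of all tested genes. At an unadjusted p under 0.05, 1 gene was higher (SLC1A5) and 4 were lower (SLC38A5, SLC6A9, SLC1A4 and SLC7A2), beside 8.96% and 13.9% of all tested genes. In 5 genes both ZCCHC4 KO1 libraries lay above both WT libraries, and in 11 they lay below, beside 23.1% and 28.5% of all tested genes. The median log2 fold change was -0.11 for the transporter genes and -0.029 for all tested genes, and 21 of 26 lay within 0.5 of 0. Besides SLC38A5 the log2 fold changes ran from -0.76 to 0.58. A gene that did not pass is not thereby shown to be unchanged.

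**Figure D1:**
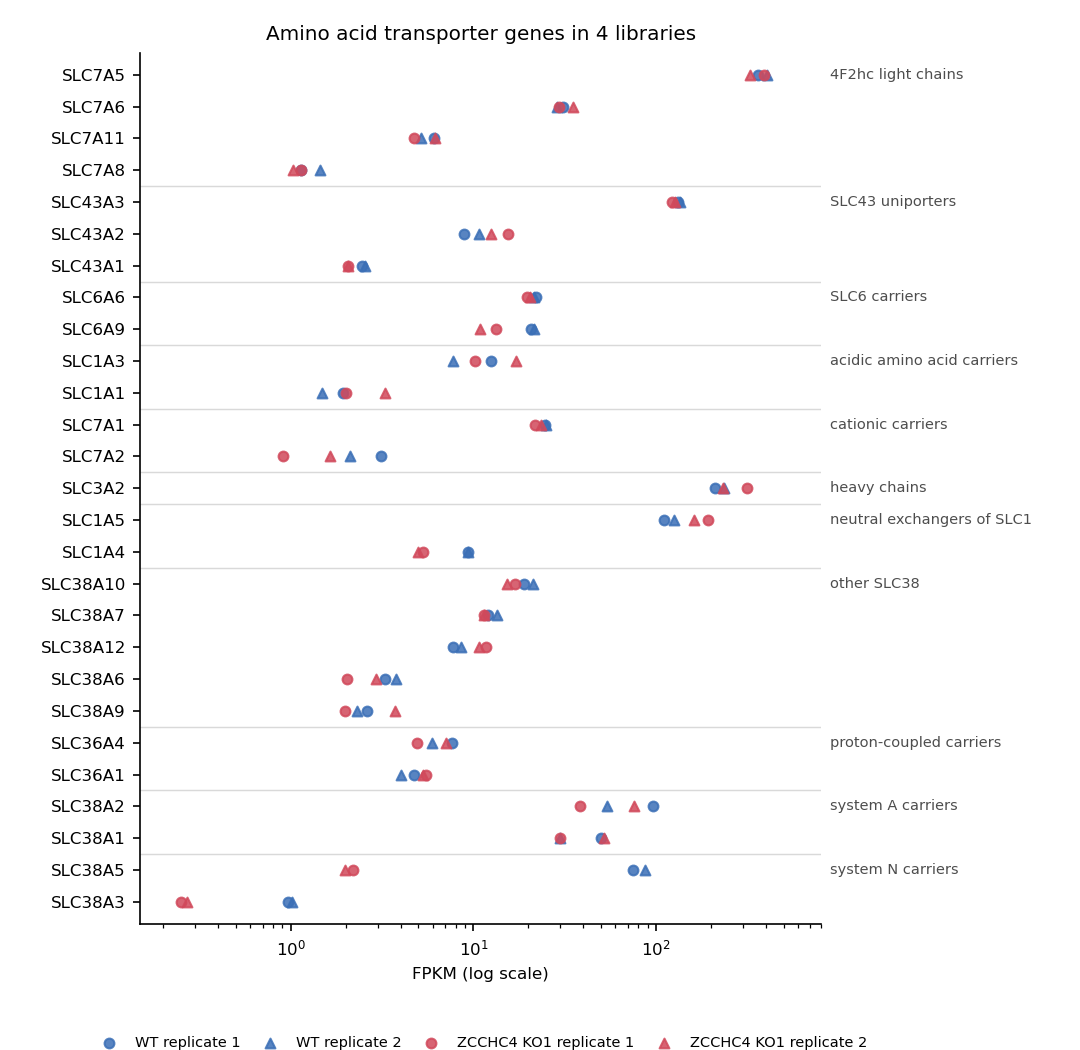
FPKM of the 26 tested transporter genes and SLC38A3 in each library (log axis; circles replicate 1, triangles replicate 2; blue WT, red ZCCHC4 KO1), grouped by transporter class. The gap between groups is widest for SLC38A5, at 74.9 and 86.9 in WT against 2.18 and 1.98 in ZCCHC4 KO1, while SLC7A5, SLC43A3 and SLC7A1 show nearly coinciding points.

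The SLC38A5 gene lies on the minus strand of the X chromosome (GRCh38.p14, chrX:48458544-48470260). Since its transcript level carries the main result, the 250 bases before its annotated start (RefSeq, chrX:48470261-48470510, read 5′ to 3′ along the gene) are shown, with the E-box CACGTG, a motif bound by basic helix-loop-helix factors such as MYC and USF, in capitals.
SLC38A5 promoter: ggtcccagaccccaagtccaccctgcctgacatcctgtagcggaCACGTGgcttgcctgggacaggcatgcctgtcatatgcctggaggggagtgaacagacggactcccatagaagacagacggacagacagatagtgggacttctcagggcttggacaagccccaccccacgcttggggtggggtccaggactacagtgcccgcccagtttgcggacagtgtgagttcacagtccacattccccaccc
The E-box began at position -206 relative to the start. It occurred in 7.26% of all 35116 RefSeq promoter windows of 300 bases and in 16.7% of the 54 windows of the transporter genes (9 of 32 genes with a window, some with several annotated starts). The window of SLC38A5 held 7 CG pairs, beside a median of 14 over all windows, and 39.3% of all windows held as few. No match to TGATGNAAN, the composite element of ATF4 with a C/EBP factor, or to TGACNNNGC, the antioxidant response element core, was found in it. A match describes the letters and says nothing of binding in these cells.

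The other system N gene, SLC38A3 (SNAT3), was near silent and stayed under the filter. Its FPKM was 0.97 and 1.02 in WT against 0.25 and 0.27 in ZCCHC4 KO1, again with no overlap. In a fit without the filter its log2 fold change was -0.66 (SE 0.0702, adjusted p = 0.0406). Together the system N genes summed to 75.9 and 87.9 FPKM in WT against 2.43 and 2.25 in ZCCHC4 KO1.

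SLC38A5 took ranks 2 and 1 in the SLC38 family in WT but 6 and 8 in ZCCHC4 KO1. It held 28.1% and 39.3% of the summed FPKM of the family in WT against 1.90% and 1.14% in ZCCHC4 KO1. The family sum was 267 and 221 in WT against 115 and 174 in ZCCHC4 KO1, and without SLC38A5 it was 192 and 134 against 113 and 172. With SLC38A5 taken out, the 2 groups overlapped. Of the summed FPKM of all 40 transporter genes, SLC38A5 held 6.04% and 6.83% in WT against 0.171% and 0.168% in ZCCHC4 KO1.

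The system A genes, SLC38A1 (SNAT1) and SLC38A2 (SNAT2), encode sodium-coupled carriers of small neutral amino acids, and SLC38A2 is known to be induced when amino acids are scarce. SLC38A2 had an FPKM of 96.3 and 53.7 in WT against 38.4 and 75.7 in ZCCHC4 KO1 (log2 fold change -0.41, SE 0.393, adjusted p = 0.605). SLC38A1 was at 50.0 and 30.0 in WT against 29.7 and 51.9 in ZCCHC4 KO1 (0.018, SE 0.338, adjusted p = 0.984). In both genes the replicates of a group differed more than the groups did, and the direction turned when 1 library was left out: leaving out WT replicate 1 gave 0.0066 for SLC38A2 and leaving out ZCCHC4 KO1 replicate 1 gave 0.072, while SLC38A1 came to -0.34 when WT replicate 2 was omitted and to -0.37 when ZCCHC4 KO1 replicate 2 was. SLC38A4, the remaining system A gene, known from liver, stayed at or under 0.18 in every library.

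The remaining SLC38 genes, several of them lysosomal or little studied, had log2 fold changes from -0.39 to 0.43. SLC38A10 had an FPKM of 19.0 and 21.3 in WT against 17.0 and 15.2 in ZCCHC4 KO1 (log2 fold change -0.31, SE 0.161, adjusted p = 0.324). SLC38A12, also called TMEM104, was at 7.69 and 8.51 against 11.8 and 10.7 (0.43, SE 0.179, adjusted p = 0.231). Neither gene overlapped between groups, beside 23.1% of all tested genes that were higher and 28.5% lower with no overlap. Neither passed the test. SLC38A7, which exports glutamine and asparagine from lysosomes, and SLC38A6 were also below WT in both knockout libraries (-0.14 and -0.39 on the log2 scale, adjusted p = 0.682 and 0.364). SLC38A9, the lysosomal arginine sensor upstream of mTORC1, was at 2.62 and 2.31 in WT against 1.97 and 3.72 in ZCCHC4 KO1, with overlap.

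The neutral exchangers of the SLC1 family lay on opposite sides of 0. SLC1A5 (ASCT2), which exchanges glutamine for other neutral amino acids, had an FPKM of 111 and 125 in WT against 193 and 162 in ZCCHC4 KO1. Its log2 fold change of 0.58 was the highest of the tested transporter genes (SE 0.150, unadjusted p = 0.00859, adjusted p = 0.0861). SLC1A4 (ASCT1), which carries serine, alanine, cysteine and threonine, was at 9.38 and 9.34 in WT against 5.33 and 4.97 in ZCCHC4 KO1 (-0.75, SE 0.181, adjusted p = 0.0747). Neither gene overlapped between groups, beside 23.1% of all tested genes that were higher and 28.5% lower with no overlap. Neither passed the test. Since SLC1A5 is the more abundant gene, their sum was 120 and 134 in WT against 198 and 167 in ZCCHC4 KO1.

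The glutamate carriers were low. SLC1A3 (EAAT1) had an FPKM of 12.5 and 7.69 in WT against 10.2 and 17.0 in ZCCHC4 KO1, which overlapped (log2 fold change 0.39, SE 0.320, adjusted p = 0.536). SLC1A1 (EAAT3), which also takes up cysteine, was at 1.93 and 1.49 in WT against 2.01 and 3.27 in ZCCHC4 KO1 (0.41, SE 0.241, adjusted p = 0.385). The other members of this class, SLC1A2, SLC1A6 and SLC1A7, were at or under 0.06 in every library.

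SLC7A5 (LAT1), the exchanger that brings leucine into cells, was the most abundant transporter gene in both groups. Its FPKM was 364 and 408 in WT against 391 and 327 in ZCCHC4 KO1, and the groups overlapped (log2 fold change -0.11, SE 0.156, adjusted p = 0.749). SLC3A2, the heavy chain that carries LAT1 to the cell surface, followed at 210 and 235 in WT against 315 and 233 in ZCCHC4 KO1, with overlap (0.28, SE 0.184, adjusted p = 0.432). The ratio of SLC7A5 to SLC3A2 was 1.73 in both WT libraries against 1.24 and 1.41 in ZCCHC4 KO1. This ratio was not tested, and neither gene passed the test. SLC7A5 held 88.4% to 92.0% of the summed FPKM of the 4F2hc light chains in every library. Of the others, SLC7A6 (y+LAT2), SLC7A11 (xCT, which takes up cystine for the synthesis of glutathione) and SLC7A8 (LAT2) had log2 fold changes of 0.11, -0.049 and -0.13, with overlapping groups, and SLC7A7 was at or under 0.44. SLC3A1, the other heavy chain, was at or under 0.06.

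The glycine carrier SLC6A9 (GlyT1) was among the transporter genes with the lowest log2 fold changes after SLC38A5, with SLC1A4 and SLC7A2. Its FPKM was 20.8 and 21.5 in WT against 13.4 and 10.9 in ZCCHC4 KO1, with no overlap (log2 fold change -0.76, SE 0.172, adjusted p = 0.0645). SLC6A6, the taurine carrier, was nearly level, at 19.6 and 20.4 in ZCCHC4 KO1 beside a WT mean of 21.7 ± 0.417 (SD, n = 2) (-0.11, SE 0.144, adjusted p = 0.708). SLC6A14 stayed at or under 0.13.

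Of the cationic carriers, which bring in arginine and lysine, SLC7A1 (CAT1) was abundant and SLC7A2 (CAT2) was low. SLC7A1 had an FPKM of 24.6 and 24.9 in WT against 21.8 and 23.5 in ZCCHC4 KO1 (log2 fold change -0.13, SE 0.143, adjusted p = 0.669). SLC7A2 was at 3.11 and 2.10 in WT against 0.91 and 1.63 in ZCCHC4 KO1 (-0.67, SE 0.252, unadjusted p = 0.0385, adjusted p = 0.190). It was the one tested transporter gene under an FPKM of 1 in any library.

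The SLC43 uniporters let large neutral amino acids pass in both directions. SLC43A2 (LAT4) had an FPKM of 8.87 and 10.7 in WT against 15.5 and 12.5 in ZCCHC4 KO1 (log2 fold change 0.47, SE 0.198, adjusted p = 0.231). SLC43A1 (LAT3) was at 2.44 and 2.54 against 2.05 and 2.07 (-0.19, SE 0.179, adjusted p = 0.6). SLC43A3, a purine nucleobase carrier of the same family, ranked 3 in abundance in WT, at 132 and 136 against 122 and 127 (-0.11, SE 0.121, adjusted p = 0.669). No uniporter gene overlapped between groups, beside 23.1% of all tested genes that were higher and 28.5% lower with no overlap. None passed the test. The proton-coupled carriers SLC36A1 (PAT1) and SLC36A4 (PAT4) stood at 0.25 and -0.15 on the log2 scale (adjusted p = 0.508 and 0.767), with overlap for SLC36A4 only.

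In all, 4 genes (SLC3A2, SLC7A5, SLC1A5 and SLC43A3) made up 65.8% and 71.0% of the summed FPKM of the 40 transporter genes in WT against 80.2% and 72.2% in ZCCHC4 KO1. That sum includes SLC38A5, at 6.04% and 6.83% of it in WT against 0.171% and 0.168% in ZCCHC4 KO1. The fall of SLC38A5 alone thus raises the share of the 4 genes in ZCCHC4 KO1. The sum over the 40 genes was 1240 and 1273 in WT against 1273 and 1175 in ZCCHC4 KO1. Without SLC38A5 it was 1165 and 1186 against 1271 and 1173, and the groups overlapped. Of the 14 genes under the filter, 13 were under 0.5 in every library and 7 were listed at 0 in at least 1. SLC7A3, SLC7A9, SLC7A10 and SLC7A13 were not analysed here.

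**Figure D2:**
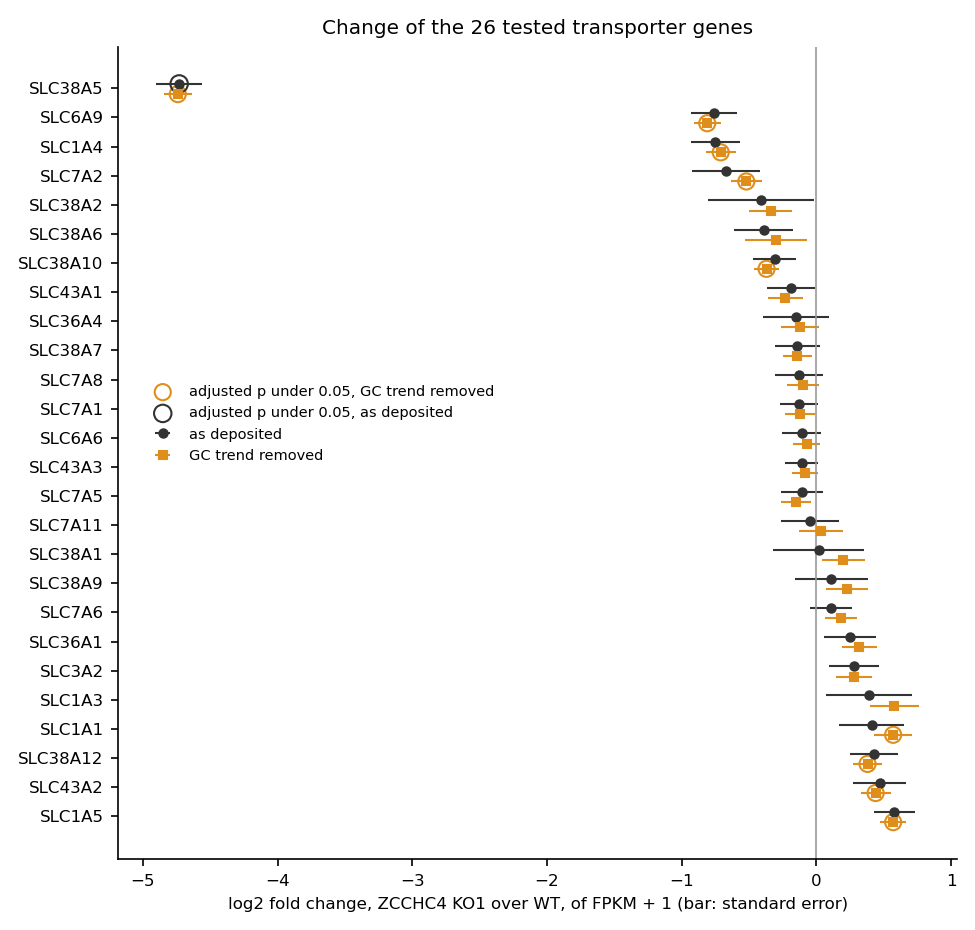
Log2 fold change of FPKM + 1, ZCCHC4 KO1 over WT, for the 26 tested transporter genes (black, as deposited; orange, after removal of the GC trend of each library; bars are standard errors; rings mark an adjusted p under 0.05). As deposited, SLC38A5 stands at -4.73 and the other 25 genes between -0.76 and 0.58. After removal of the GC trend SLC38A5 stands at -4.74 and SLC6A9 at -0.81, and 9 genes carry an orange ring.

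The 2 replicates of each group diverged with transcript GC content, most of all for SLC38A2 and SLC38A1. Across the 26 genes, GC content correlated with replicate 2 minus replicate 1 at a Pearson r of 0.71 in WT and -0.86 in ZCCHC4 KO1 (Spearman 0.73 and -0.85), a description over genes that share the same 4 libraries. The sign of the replicate difference was opposite in the 2 groups for 19 of 26 genes. The largest differences were those of the AT-rich transcripts of SLC38A1, SLC38A2 and SLC1A3. These were lower in replicate 2 of WT and higher in replicate 2 of ZCCHC4 KO1. The difference reached 0.96 on the log2 scale, beside a median absolute difference of 0.18. SLC38A6, at 38.7% GC, was higher in replicate 2 of both groups, by 0.16 in WT and 0.38 in ZCCHC4 KO1. After a smooth GC trend was removed from each library, 4 transporter genes were higher (SLC1A5, SLC43A2, SLC38A12 and SLC1A1) and 5 were lower (SLC38A5, SLC6A9, SLC1A4, SLC38A10 and SLC7A2) at an adjusted p under 0.05, beside 12.6% and 13.5% of all genes. Under that setting 1343 of all genes were higher and 1436 lower, in place of 161 and 480 as deposited, so 48.3% of the calls were higher in place of 25.1%. The same share was 35.8% after median-ratio scaling and 39.3% after quantile normalization.

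**Figure D3:**
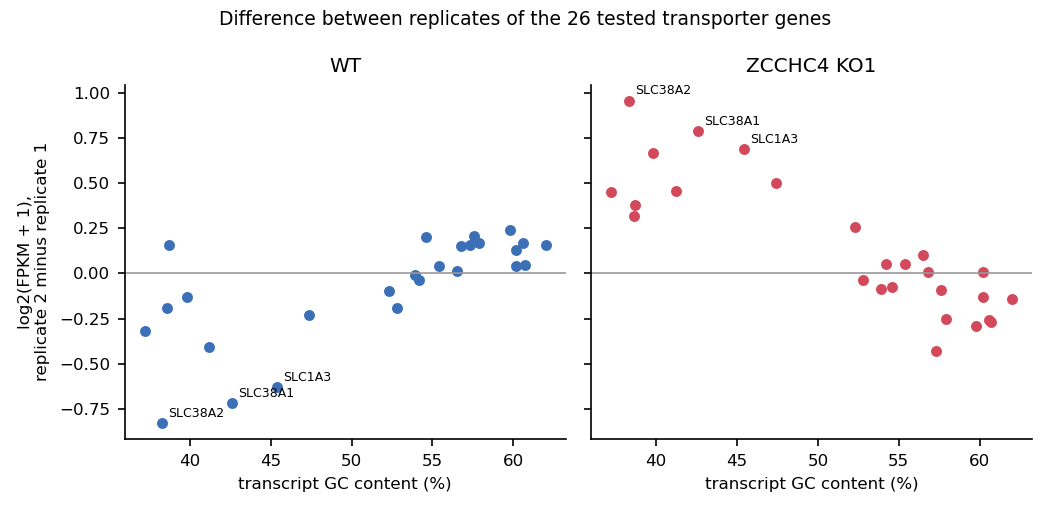
Difference in log2(FPKM + 1) between replicate 2 and replicate 1 against transcript GC content (37.2% to 62.0%) for the 26 tested transporter genes, in WT (left) and ZCCHC4 KO1 (right). The points rise with GC in WT (r = 0.71) and fall with GC in ZCCHC4 KO1 (r = -0.86), with SLC38A2 at -0.83 and 0.96.

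Genes near SLC38A5 on the X chromosome were compared with it, since a whole stretch can shift in level between lines. The 10 tested genes nearest to SLC38A5 on each side lay at distances from -1320 kb to 439 kb, measured between lower gene ends. All 20 had log2 fold changes below 0, from -1.22 (TIMP1) to -0.20 (RBM10), with a median of -0.78. Of these, 8 passed the test, beside the 4.48% of all genes given above. The adjacent tested genes were UXT and FTSJ1, at distances of -807 kb and 17.7 kb. UXT had an FPKM of 214 and 238 in WT against 138 and 108 in ZCCHC4 KO1 (log2 fold change -0.88, SE 0.166, limma adjusted p = 0.0409). FTSJ1 was at 105 and 113 against 75.3 and 67.6 (-0.60, SE 0.132, adjusted p = 0.0596). The log2 fold change of SLC38A5 minus the neighbours' median was -3.95. Of the 365 other tested genes of the X chromosome, 0 had a lower log2 fold change, and the next was at -2.01. The part of the shared shift in the fall of SLC38A5 was not tested further.

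The same comparison set SLC7A2 apart from the other transporter genes. The median log2 fold change of its 20 neighbours was -0.53, with 18 of 20 below 0, close to its own -0.67. It was the 1 gene among the other 25 whose neighbours' median lay more than 0.3 from 0. The medians around SLC1A5, SLC6A9 and SLC1A4 were 0.15, 0.11 and -0.03, beside their own 0.58, -0.76 and -0.75. None of these genes passed the test, and the part of their surroundings in these values was not tested.

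The composite element TGATGNAAN, through which ATF4 acts on genes of the amino acid response, was found in 11.1% of the 54 promoter windows of the transporter genes (6 of 32 genes), beside 3.61% of all windows. The matches and the bases around them are shown since the 6 genes include both neutral exchangers, whose log2 fold changes lay on opposite sides of 0. The element is in capitals, as read along the gene, and in SLC1A4 and SLC3A2 it lies on the opposite strand (GRCh38.p14). In the order shown, it began at -8, -220, 36, -4, 7 and -97 relative to an annotated start of the gene. For SLC1A4, SLC3A2, SLC38A1 and SLC1A5 that start is an alternative start inside the full span of the gene.
SLC1A4 (chr2:64989381-64989409): gcggctcccgTTTGCATCAtctccagccg
SLC1A3 (chr5:36596358-36596386): aggaaatgacTGATGCAAAgcagggttaa
SLC3A2 (chr11:62881725-62881748): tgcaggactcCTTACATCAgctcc
SLC38A1 (chr12:46266502-46266530): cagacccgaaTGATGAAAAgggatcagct
SLC7A1 (chr13:29595663-29595691): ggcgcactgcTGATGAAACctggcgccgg
SLC1A5 (chr19:46784893-46784921): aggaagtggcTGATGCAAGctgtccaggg
Of these genes SLC1A5 had a log2 fold change of 0.58 and SLC1A4 of -0.75, while SLC1A3, SLC3A2, SLC38A1 and SLC7A1 were at 0.39, 0.28, 0.018 and -0.13. None of the 6 passed the test. The motif TGACNNNGC was found in 7 of the 54 windows (of 7 genes), beside 13.3% of all windows, among them those of SLC3A2, SLC7A5 and SLC1A5.

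In the 4 lists of related genes, the counts that passed are read beside the 1.5% of all tested genes that rose and the 4.48% that fell. GLUL, glutamine synthetase, fell: its FPKM was 8.68 and 10.8 in WT against 1.90 and 1.52 in ZCCHC4 KO1 (log2 fold change -1.98, SE 0.212, adjusted p = 0.0106). The gene for glutamine synthesis and the main gene for system N glutamine transport were both low in both ZCCHC4 KO1 libraries. The glutamine exchanger gene SLC1A5 was higher in both, without passing the test. SLC38A1, SLC38A2 and SLC7A5, which can also move glutamine, overlapped between groups (log2 fold changes 0.018, -0.41 and -0.11). SLC38A7 was lower in both ZCCHC4 KO1 libraries (-0.14), without passing the test. A link between these genes was not tested. GLUL was the 1 gene of 26 tested for glutamine and glutamate metabolism that passed, and 0 rose, also near the shares of all tested genes (median log2 fold change -0.018, beside -0.029 for all genes). Of 36 tested genes for amino acid sensing by mTORC1, 0 rose and 1 fell, a share near that of all tested genes. This was RRAGA, a GTPase that ties lysosomal amino acids to mTORC1, at 52.6 and 57.6 in WT against 29.9 and 33.4 in ZCCHC4 KO1 (-0.78, SE 0.140, adjusted p = 0.0363). The median of this list was 0.006.

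Of 40 tested genes of ATF4 and the amino acid response, 0 rose and 0 fell by the limma test (3 higher and 5 lower at an unadjusted p under 0.05, beside 8.96% and 13.9% of all tested genes), with a median of -0.044. ATF4 itself had an FPKM of 157 and 156 in WT against 152 and 148 in ZCCHC4 KO1 (log2 fold change -0.064, SE 0.121, adjusted p = 0.807). EIF2AK4 (GCN2), the kinase that senses uncharged tRNA, was at 11.9 and 9.10 in WT against 5.67 and 9.46 in ZCCHC4 KO1, with overlap (-0.45, SE 0.278, adjusted p = 0.407). Of 17 tested genes for other amino acid and oligopeptide carriers, 0 rose and 0 fell (2 higher and 3 lower at an unadjusted p under 0.05), with a median of -0.11.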

How the data were processed

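RNA-seq was performed on 4 libraries (2 WT, 2 ZCCHC4 KO1). According to the study's methods, reads were aligned to GRCh38 with Bowtie2 and gene levels were estimated with RSEM; versions and annotation are not given in the sources used here. The labels name Illumina HiSeq and the methods BGISEQ-500 as the platform. The authors deposited FPKM values, 1 column per library, used here as they stand (sums of 512417 to 565199 per library). Counts were not used, so the depth is unknown, and the number of libraries limits the precision.

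Genes with an FPKM of at least 1 in at least 2 libraries were tested as log2(FPKM + 1), which understates changes of low genes, with limma 3.58.1 (lmFit and eBayes with a trend) in R 4.3.3. P-values were two-sided and Benjamini-Hochberg adjusted over 10726 genes; 2 residual degrees of freedom remained. Python 3.11.15 was used for joins and sums. Summed FPKM are given without a p. Symbols, positions and promoters came from RefSeq (GRCh38.p14), transcript GC from GENCODE transcripts. Motifs were searched on both strands.

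The members and lists were chosen with earlier results of these data known. Named were each transporter gene by value, range or count, ZCCHC4, ATF4, EIF2AK4, passing genes of the lists (up to 3 each) and the neighbours of SLC38A5; TIMP1 and RBM10 were named after their values were seen. Alternatives were another pseudocount, other filters and scalings, no trend, the replicate block, GC removal and omission of each library. Same-numbered replicates deviated in opposite directions (r = -0.787), so the numbers were not taken to pair the libraries.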

Additional observations from a re-analysis of the deposited data

How the results depend on the processing

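SLC38A5 had an adjusted p under 0.05 in 13 of 13 alternatives, with log2 fold changes from -5.21 to -4.62, and met the thresholds of the study in 12; without the filter on low values its adjusted p was 0.0155, so the count at those thresholds was 0 in place of 1. The count of transporter genes that rose, 0 as reported, was 1 after quantile normalization, 4 after GC removal and 6 with a crossed replicate block, and 0 to 1 when a library was left out (1, SLC1A5, without ZCCHC4 KO1 replicate 2). The count that fell, 1 as reported, was 2 without the filter (SLC38A3 added), 5 after GC removal and 7 with the crossed block, and 1 to 2 when a library was left out (2, with SLC6A9, without ZCCHC4 KO1 replicate 1). The crossed block was chosen after seeing the data. With the replicate block 0 rose and 1 fell, and it changed no call of a transporter gene. Over all genes the replicate block called 107 higher and 355 lower in place of 161 and 480; the extremes were 82 and 262 without the filter and 2309 and 2986 with the crossed block. The cause was not tested. Of 332 pairs of a transporter gene and an alternative, 295 kept direction and side of the threshold, 23 passed it newly, 0 lost it and 14 turned direction. SLC7A11 turned to 0.0092 after median-ratio scaling, 0.073 after quantile normalization and 0.033 after GC removal. With single libraries left out, where the lone library of a group was assumed to vary like the other group, the log2 fold changes of the genes that turned ran from -0.23 to 0.022 for SLC7A5, -0.89 to 0.072 for SLC38A2, -0.37 to 0.41 for SLC38A1, -0.022 to 0.23 for SLC7A6, -0.38 to 0.071 for SLC36A4, -0.21 to 0.11 for SLC7A11 and -0.22 to 0.45 for SLC38A9. Since FPKM carries no counts, no depth limit could be set, and the 2 libraries per group limit the precision.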

Other observations

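Among genes that did not pass the test, named here after their values were seen, the 4 with the smallest p on the ATF4 list lay on both sides of 0. YARS1, tyrosyl-tRNA synthetase, had an FPKM of 96.0 and 109 in WT against 198 and 153 in ZCCHC4 KO1 (log2 fold change 0.76, SE 0.171, limma adjusted p = 0.0645). TRIB3, a pseudokinase induced by ATF4, was at 20.7 and 25.4 against 45.5 and 34.8 (0.77, SE 0.193, adjusted p = 0.0819). PHGDH, the first enzyme of serine synthesis, was at 107 and 130 against 242 and 169 (0.77, SE 0.209, adjusted p = 0.0974). CTH, which makes cysteine from cystathionine, was at 10.9 and 11.7 against 6.29 and 6.79 (-0.71, SE 0.178, adjusted p = 0.0824). CTH was the 1 lower gene of the 4, but the whole list had 3 genes higher and 5 lower at an unadjusted limma p under 0.05. The other lower genes were CHAC1, NARS1, DDIT4 and GARS1, at log2 fold changes of -0.51, -0.73, -0.37 and -0.41. None of the first 4 overlapped between groups. In the list of 40, both ZCCHC4 KO1 libraries lay above WT in 12 genes and below in 9, beside 23.1% and 28.5% of all tested genes.

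On the list for glutamine and glutamate metabolism, CTPS2 and CTPS1, the paired CTP synthases that use glutamine as nitrogen donor, lay on opposite sides of 0. CTPS2, an X chromosome gene, was at 11.2 and 10.2 in WT against 3.75 and 5.51 in ZCCHC4 KO1 (log2 fold change -1.07, SE 0.227, adjusted p = 0.0547). CTPS1 was at 101 and 104 against 136 and 127 (0.35, SE 0.124, adjusted p = 0.166). Among the Rag GTPases, RRAGB, which can stand in for RRAGA and also lies on the X chromosome, was at 9.21 and 8.67 against 4.16 and 5.67 (-0.76, SE 0.212, adjusted p = 0.102). The groups did not overlap in any of these genes, which were named after their values were seen. Among all tested genes, 23.1% were higher and 28.5% lower with no overlap. No gene of this paragraph passed the test.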
